A study of Mus musculus with 4 samples.

Results

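Of the 55681 different non-control probes on these mouse expression arrays, 16194 are named by a stretch of the genome and a strand instead of by a gene. They are the array's long intergenic RNA probes, taken here by that form of name. The array reads each stretch on the forward (F) strand, the reverse (R) strand or both, so the probes make 4610 region features, each a region on 1 strand, over 3543 intervals. After a filter on dim probes, 4148 region features were tested among 29114 features in all. The tissue is the lumbar cord of male mice of the ICR strain, aged 8 weeks, collected on day 10 after surgery. The operation was a tight ligature around the spinal nerve of segment L5 in 2 mice (SNL, for spinal nerve ligation) and exposure of that nerve without a ligature in 2 others (sham). Every mouse in both groups was operated on, and each gave 1 array.

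Long intergenic RNAs are transcripts made from the stretches between protein-coding genes. Many are spliced and polyadenylated like messenger RNA but carry no long reading frame, and they are often present at low levels and restricted to few tissues. Some act on neighbouring genes, some act elsewhere in the cell, and for most no function is known. A candidate region can be transcribed from either strand, which is why arrays often place probes on both. Ligation of a spinal nerve is a model of neuropathic pain in which the axons of sensory neurons and of motor neurons in that nerve are injured. The name intergenic holds for most of these regions but not for all. The interval of 225 of the 4148 tested features (5.42%) also holds the probe of a protein-coding gene, on the same strand for 123 of them.

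Some of the probes that carry large changes are printed here, because what they read decides what a change can be assigned to. Positions are of the mouse build mm9, per the file headers, and each sequence runs 5′ to 3′ on the strand named. The first set is the pair from an interval of chromosome 1, chr1:115829055-115854155, in which capitals mark the 53 bases that the forward and reverse probes share as exact complements.
Forward probe, chr1:115852583-115852642: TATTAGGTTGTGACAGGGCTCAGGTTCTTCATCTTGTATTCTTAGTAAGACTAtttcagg
Reverse probe, chr1:115852576-115852635: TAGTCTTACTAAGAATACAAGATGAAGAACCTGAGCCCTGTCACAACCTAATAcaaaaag

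The second set comes from the block of Speer genes on chromosome 5, a rodent family of testis-expressed genes named for glutamate-rich proteins. Capitals mark a run of 47 bases that the probes of 2 different intervals have in common, so the changes of these 2 probes cannot be told apart.
Forward probe of chr5:26323150-26357875: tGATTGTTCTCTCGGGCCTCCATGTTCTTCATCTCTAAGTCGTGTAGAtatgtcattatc
Forward probe of chr5:26374425-26393675: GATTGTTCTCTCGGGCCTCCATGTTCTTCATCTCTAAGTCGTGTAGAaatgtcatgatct

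The third set shows probes of features that are described below by all their probes. No part of them is marked.
Forward probe of chr9:75316023-75344401, at chr9:75334408-75334467: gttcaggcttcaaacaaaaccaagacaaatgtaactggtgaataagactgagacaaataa
Reverse probe of chr1:64686823-64728598, at chr1:64726968-64727027: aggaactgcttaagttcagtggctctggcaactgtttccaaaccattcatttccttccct
Reverse probe of chr13:34872696-34906407, at chr13:34872724-34872783: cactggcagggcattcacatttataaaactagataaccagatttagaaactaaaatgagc
Forward probe of chr8:83210957-83219451, at chr8:83219349-83219408: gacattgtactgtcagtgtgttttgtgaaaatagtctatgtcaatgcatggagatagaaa

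The hexamer AATAAA, the usual signal for polyadenylation, was searched in each probe on the probe's own strand. It was found in 3.92% of region probes and in 13.2% of coding-gene probes. Its reverse complement TTTATT, which has no overlap with it, was found in 3.03% and 4.27%. The median share of G and C was 45.0% in region probes and 41.7% in coding-gene probes.

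Region probes were detected less often than coding-gene probes on every array, and less often after ligation than after sham. Detected means well above background by the scanner software. On the sham arrays 73.2% and 73.2% of region probes were detected, against 62.2% and 67.5% on the SNL arrays. Coding-gene probes reached 88.1% and 88.3% after sham surgery, and 85.2% and 86.7% after ligation. Of the 16194 region probes, 9722 were detected on all 4 arrays and 3695 on none. Another 770 (4.75%) were detected in both sham mice and neither SNL mouse, and 67 (0.414%) in both SNL mice and neither sham mouse. Among coding-gene probes the same counts were 433 (1.64%) and 136 (0.515%). The scanner software replaced dim signals by a surrogate at 11.8% and 12.0% of region spots on the sham arrays, and at 19.3% and 15.6% on the SNL arrays. Per the file headers the sham arrays hold the positions with first index 1 on the slide and the SNL arrays those with first index 2. Position and group therefore cannot be told apart, in these detection shares or in any change between SNL and sham given below.

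**Figure D1:**
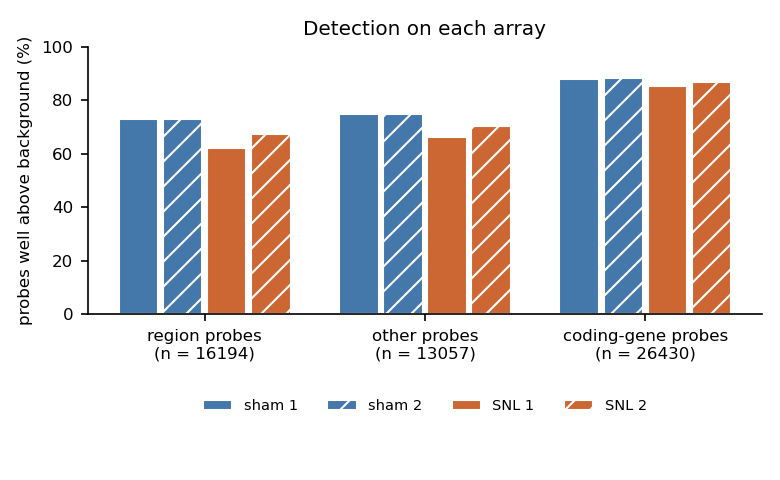
The bars give the percent of probes well above background on each of the 4 arrays, for 16194 region probes, 13057 other probes and 26430 coding-gene probes (blue sham, orange SNL, hatched the second mouse). Region probes lie at 73.2% in both sham mice and at 62.2% and 67.5% in the SNL mice, below the coding-gene probes on each array.

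Of the 4610 region features, 4148 (90.0%) were tested because at least 1 of their probes was detected on 2 or more arrays. All probes passed in 2216 features, some in 1932 and none in 462. Features with 1 probe passed less often (539 of 690, 78.1%) than features with 2 or more (3609 of 3920, 92.1%). Passing shares of probes were alike on the strands, with 71.8% of 8184 forward and 71.1% of 8010 reverse probes. By chromosome, the share of features tested ran from 82.0% on X (146 of 178) to 93.8% on chromosome 8 (271 of 289). On the log2 scale relative to each array's 75th percentile, the correlation of levels across the 4148 features, which are not independent replicates, was 0.992 between the sham arrays, 0.981 between the SNL arrays and 0.979 to 0.983 between arrays of different groups, so the SNL arrays were no closer to each other than the closest arrays of different groups.

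After ligation 6 region features rose and 0 fell at a Benjamini-Hochberg adjusted p under 0.05 in limma, of 4148. This is 0.145%, beside 0.161% higher and 0.0103% lower among all 29114 features tested. At unadjusted p under 0.05, 212 region features were higher (5.11%) and 221 lower (5.33%), beside 6.67% and 5.48% of all features. At least 2-fold changes at that unadjusted p numbered 44 higher (1.06%) and 22 lower (0.53%), beside 1.91% and 0.714% of all features. Among 17074 coding genes those shares were 2.24% and 0.738%. The median log2 change was 0.02 for region features and 0.03 for all features. Each of these shares of region features was below that of all features. The median SE was 0.18 for region features and 0.12 for coding genes.

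These counts moved with the arrays used. When any 1 of the 4 arrays was left out, limma called 0 features of any kind at adjusted p under 0.05, and 140 to 577 region features were higher at unadjusted p under 0.05. These fits have 1 mouse in an arm, assumed to vary like the other group, and 1 residual degree of freedom, so the lost calls say nothing about stability. The log2 changes of 5 of the 6 called features then lay at 4.50 to 4.70, 3.56 to 3.75, 3.01 to 3.08, 2.68 to 2.99 and 2.29 to 2.41, and that of the sixth, by Ccnyl1, at 0.80 to 3.66. Without SNL replicate 1 there were 109 features 2-fold higher and 18 lower, and the region median was 0.14. Without SNL replicate 2 there were 71 higher and 122 lower, and the median was -0.11. Sham replicate 1 or 2 left out gave 55 and 43 higher and 17 and 17 lower. With normexp background correction the split was 42 higher and 8 lower. In bulk cord, fewer cells of a type and less RNA per cell cannot be told apart. All 6 microglial markers tested were above 0 (median log2 change 0.56, 0 past the adjusted threshold). None of the 6 motor neuron markers was above 0 (median -1.16, 2 past the adjusted threshold). The Schwann cell markers had median levels of 0.42 and -5.29 in the sham mice and 0.35 and -0.94 in the SNL mice. Muscle markers lay at -2.61 and -1.26 in sham and at 2.62 and -3.17 in SNL, and sensory ganglion markers between -5.76 and -5.51 on all arrays. Their part in the region changes was not tested. The spinal cord label was met by 6 Hox genes of cord position and by oligodendrocyte markers, whose median levels were 1.07 to 1.16 and 3.11 to 3.51. Hoxc8 was the lowest of the Hox genes, at -0.63 to -0.58. The lumbar level was not tested by these medians.

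The increase with the most probes behind it was the forward strand of chr9:75316023-75344401, an interval whose nearest coding gene is Tmod3, a capping protein of actin filaments. Its probe, printed above, had log2 levels of -5.57 and -5.52 in the sham mice and -2.54 and -2.61 in the SNL mice. Here and in the other 5 calls, both SNL values lay above both sham values. The same held for all 44 features 2-fold higher, so it adds no support to a call. The log2 change of the chromosome 9 feature was a rise of 2.97 ± 0.09 (SE of the limma fit, n = 2 mice per group, adjusted p = 0.0371), or 7.82-fold. All 10 of its tested probes were higher after ligation, with log2 changes from 2.48 to 3.28. These probes begin 17.5 to 18.4 kb from the start of the interval, and some overlap. Runs of 40 and 20 bases are shared with the probe used, so the 10 are not independent readings along the interval. The reverse probe of the interval was at 0.24 ± 0.09. A shorter interval inside it, chr9:75330657-75332641, was at 1.09 ± 0.09 on the forward strand (adjusted p = 0.0879). The transcript AW552889, read from the opposite strand within the interval, was at 2.66 ± 0.14 (adjusted p = 0.0521), and Gm7972, on the same strand, at 1.48 ± 0.16 (adjusted p = 0.119). Unnamed probes of the same strand within the interval were at 2.61 ± 0.28 and 3.43 ± 0.20 (adjusted p = 0.116 and 0.0578). Tmod3 itself, 11.9 kb away, was at -0.13 ± 0.23.

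Among called features, the largest increases were those of the complementary pair of chr1:115829055-115854155. The reverse feature had log2 levels of -6.34 and -6.54 in the sham mice and of -1.90 and -1.77 after ligation. It rose by 4.60 ± 0.12 (adjusted p = 0.0371), or 24.3-fold. The forward feature was at -5.28 and -5.29 in sham, and at -1.73 and -1.54 in SNL, and rose by 3.65 ± 0.11 (adjusted p = 0.0371), or 12.6-fold. Both rest on the same stretch of DNA. None of the other 5 tested forward probes was above 0, with changes down to -0.48, and the nearest of them, 23.3 kb from the start of the interval beside 23.5 kb for the printed probe, was at -0.39 ± 0.38. The other reverse probe was at -0.20 ± 0.31. With the tested probes of a name averaged, an alternative chosen after seeing the data, the forward feature was at 0.37 (adjusted p = 0.5) and the reverse at 2.20 (adjusted p = 0.102). Dsel, the nearest coding gene tested, lies 2097 kb away and was at -0.01 ± 0.11.

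A lone high probe was also seen in other called features. For the reverse strand of chr1:64686823-64728598 the sham levels of -5.79 and -5.99 stood against SNL levels of -2.39 and -2.26, a rise of 3.56 ± 0.12 (adjusted p = 0.0384). The probe lies 40.1 kb from the start of the interval, and the other 3 tested probes, at 12.7 to 13.0 kb, were between -0.01 and 0.46. Averaged over the 4 probes the change was 1.06 (adjusted p = 0.251), and without SNL replicate 1, where another probe stood for the name, 0.80. The transcript 2810408I11Rik, read on the same strand within the interval, was at 0.02 ± 0.11. The forward strand of chr18:61781410-61788685 stood at -2.20 and -2.26 in sham, and at 0.79 and 0.84 in SNL, and rose by 3.05 ± 0.09 (adjusted p = 0.0371). Its other 3 probes were at -0.15, 0.12 and 1.52 ± 1.05. That last probe was high in the second SNL mouse (-3.28) and not in the first (-6.08), so the probes averaged gave 1.14 (adjusted p = 0.347). Its nearest coding gene, Csnk1a1, a casein kinase, lies 40.2 kb away and was at 0.03 ± 0.10.

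The sixth call, the reverse strand of chr13:34872696-34906407, had levels of -4.74 and -4.76 in sham and of -2.47 and -2.34 in SNL, a rise of 2.35 ± 0.10 (adjusted p = 0.0402). The probe starts 0.028 kb from the start of the interval, and the other tested probe, at 0.157 kb, was at 0.51 ± 1.39. That probe was at -7.50 in the first SNL mouse and -3.73 in the second, on either side of its sham values of -6.10 and -6.17. The average over both probes was 1.43 (adjusted p = 0.531). Fam50b, the nearest coding gene, lies 34.2 kb away on the other strand and was at 0.75 ± 0.47. Of the 6 calls, 1 passed with the tested probes averaged, the chromosome 9 feature at 2.89 (adjusted p = 0.0483).

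**Figure D2:**
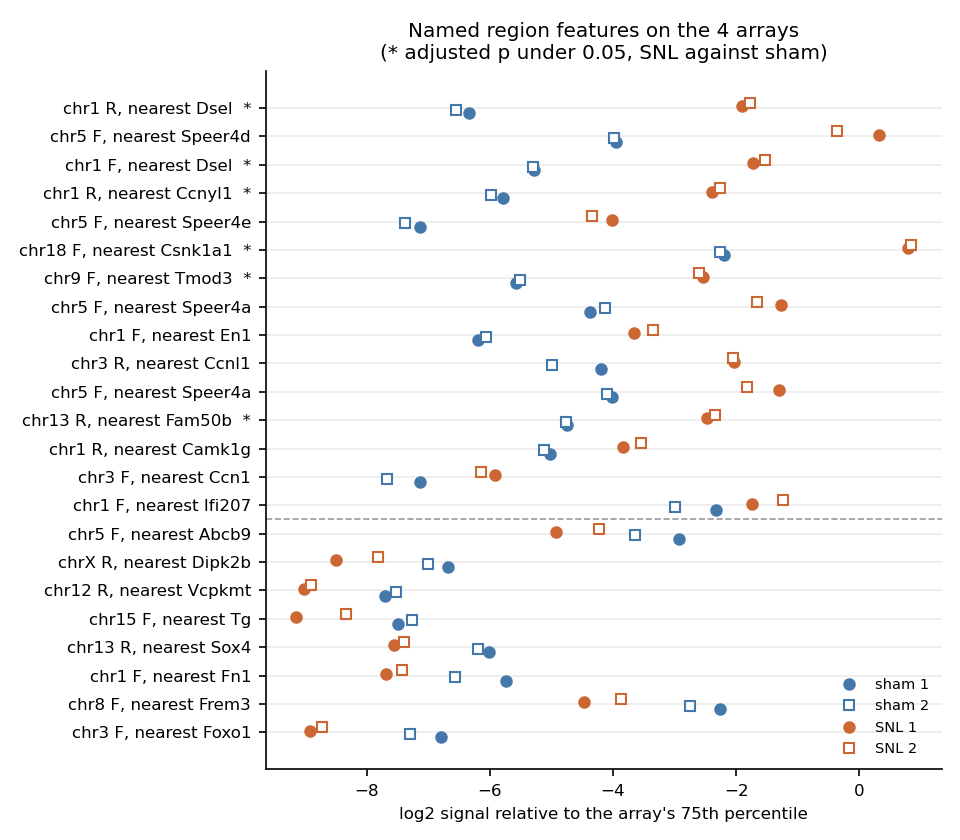
Each row is a named region feature, labelled by chromosome, strand and nearest coding gene, and each mark is the log2 signal of 1 array relative to that array's 75th percentile (blue sham, orange SNL, filled first mouse, open second mouse). The 15 features above the dashed line were higher after ligation and the 8 below it lower, and a star marks the 6 with an adjusted p under 0.05; the rows by Dsel rest on probes that share 53 bases and those by Speer4a on probes that share 47.

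Other large increases did not pass the adjusted threshold. The forward strand of chr1:122655019-122660142 lies 156 kb from En1, a homeobox factor of ventral interneurons. Its sham levels of -6.19 and -6.07 stood against -3.66 and -3.34 after ligation, a difference of 2.63 ± 0.15 (adjusted p = 0.0557). All 3 of its tested probes lay higher after ligation, with differences from 2.31 to 3.88. With the probes averaged the difference was 2.94 (adjusted p = 0.0464). En1 was at 1.61 ± 0.34 (adjusted p = 0.256). The reverse strand of chr3:65729664-65731697, beside the cyclin gene Ccnl1, stood at -4.20 and -4.99 in sham, and at -2.04 and -2.05 in SNL, a difference of 2.55 ± 0.30 (adjusted p = 0.141), with all 3 probes between 2.55 and 2.95. Ccnl1 was at 0.22 ± 0.09.

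Across all regions the probes of 1 feature often moved apart. Among 2959 features with 2 or more tested probes, the SD of log2 changes within a feature was 0.38, beside 0.46 over all tested probes of these features. In 1341 of them all tested probes lay on the same side of 0. Of the 44 features 2-fold higher, 31 had other tested probes. Of those 77 other probes, 56 changed in the same direction and 31 were also at least 2-fold higher. Every tested probe was at least 2-fold higher in 10 of the 31. The 22 features 2-fold lower included 7 with other tested probes, and 18 of those 21 probes lay below 0. The fit used the probe with the highest mean level, so the other probes are not an independent sample.

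**Figure D3:**
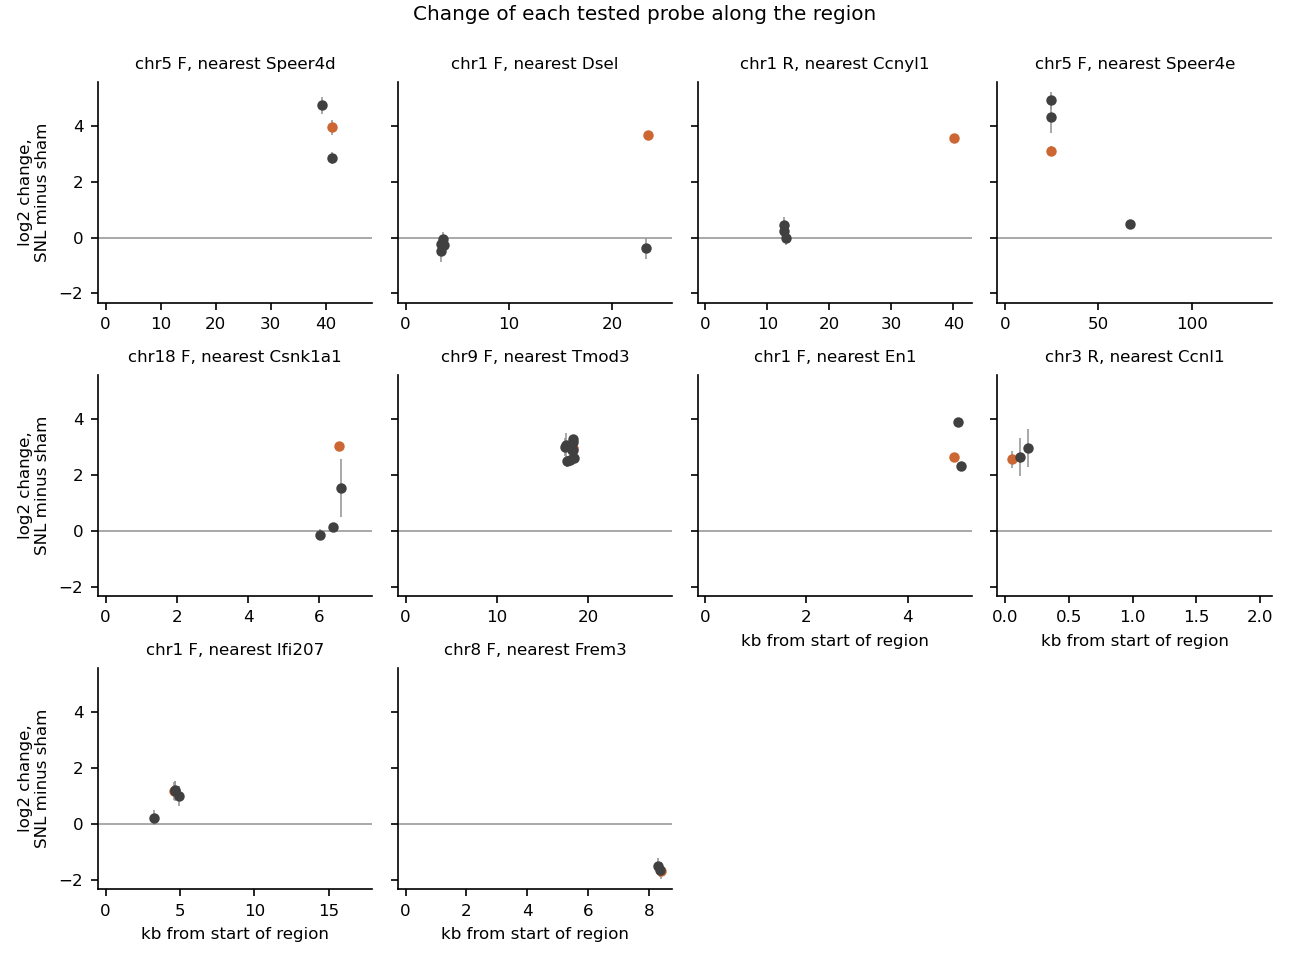
Each panel is 1 named region on 1 strand with at least 3 tested probes, and each point is a probe's log2 change (SNL minus sham, bars SE) by its distance in kb from the start of the region; the orange point is the probe used in the fit. In the chromosome 9 panel all 10 points lie between 2.48 and 3.28, while in the panel by Dsel a lone point lies above 0.

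Of 1067 regions with probes on both strands, 981 were tested on both, 31 on the forward strand alone, 35 on the reverse strand alone and 20 on neither. The changes of the forward and reverse features correlated at r = 0.256 over the 981 pairs, which share the same 4 arrays. In 283 pairs the probes overlap, so they read complementary bases of the same stretch, and there r was 0.617. Without the chromosome 1 pair by Dsel it was 0.384, and in the 698 pairs with probes apart it was 0.109. That pair was the 1 region at least 2-fold higher at unadjusted p under 0.05 on both strands. By the same rule a further 18 regions were 2-fold higher on 1 strand and 5 were 2-fold lower on 1 strand, and 0 were 2-fold changed in opposite directions.

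The difference between strands was tested with limma on forward minus reverse values per array, and 5 of 981 pairs passed (0.51%). This test was added after seeing the data. It compares 1 probe per strand, which need not stand for the other probes of that strand. In the 4 described here, named for that reason after their values were seen, the probe of 1 strand was higher after ligation and that of the other lay between -0.38 and 0.24. The chromosome 9 interval by Tmod3 differed by 2.73 ± 0.14 in favour of the forward probe (adjusted p = 0.0193). Its probes lie 13292 bases apart, and AW552889, read on the opposite strand elsewhere in the interval, was itself at 2.66 ± 0.14. The interval by Ccnyl1, chr1:64686823-64728598, differed by -3.41 ± 0.18, with the reverse probe higher (adjusted p = 0.0193), over probes 1338 bases apart. The other tested reverse probes there lay between -0.01 and 0.46. The chromosome 18 interval by Csnk1a1 differed by 3.02 ± 0.18 (adjusted p = 0.0221), and its reverse probe was at 0.02 ± 0.15. Its other tested forward probes were at -0.15, 0.12 and 1.52 ± 1.05. For chr7:129294166-129301366 the reverse feature was at 1.62 ± 0.11 and the forward at -0.38 ± 0.11, a difference of -1.99 ± 0.14 (adjusted p = 0.0243). In the intervals of chromosomes 18 and 7 the probes of the strands lie 138 and 142 bases apart, measured between their middles.

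**Figure D4:**
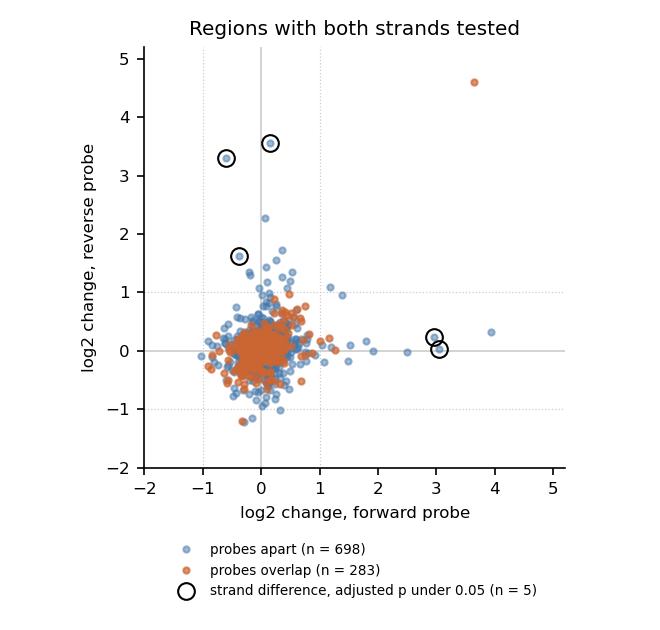
Each point is a region tested on both strands, with the log2 change (SNL minus sham) of its forward probe across and of its reverse probe upwards; orange points have overlapping probes (n = 283) and blue points do not (n = 698). The 5 circled points differ between strands at adjusted p under 0.05 and lie near an axis, and the orange point at the upper right is the pair by Dsel at 3.65 and 4.60.

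By chromosome, 2-fold higher region features numbered 10 of 318 on chromosome 1 (3.14%), 6 of 253 on chromosome 5 (2.37%) and 0 on chromosomes 10, 17 and X, beside 1.06% over all chromosomes. Coding genes of chromosomes 1 and 5 were 2-fold higher in 3.49% and 2.85%. Chromosome 1 holds 3 of the 6 calls, of which the pair by Dsel reads 1 stretch. Median changes per chromosome lay between -0.03 and 0.06.

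Few region features lay near a coding gene that was higher after ligation. Risen coding genes were those at least 2-fold higher at unadjusted p under 0.05 (380 with a probe position), and distances run between the middles of probes. Within 100 kb of such a gene lay 139 of 4124 region features with a position, and 6 of them (4.32%) were 2-fold higher themselves, beside 1.07% of all. Of the same 139, 1 was 2-fold lower (0.719%), beside 0.533% of all. From 100 kb to 1 Mb the count of 2-fold higher features was 7 of 955 (0.733%), and further away 31 of 3030 (1.02%). For coding genes within 100 kb of another risen gene it was 83 of 1119 (7.42%), beside 2.23% of all. Thus 31 of the 44 higher region features (70.5%) had no risen coding gene within 1 Mb, near the 73.5% of all region features. The median distance was 2252 kb for 2-fold higher features and 2721 kb for all tested ones. Of the 6 near features, 4 lie by Speer genes on chromosome 5, and leaving those out left 2. With risen genes taken at adjusted p under 0.05 (31 genes), 1 of 13 region features within 100 kb was 2-fold higher.

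**Figure D5:**
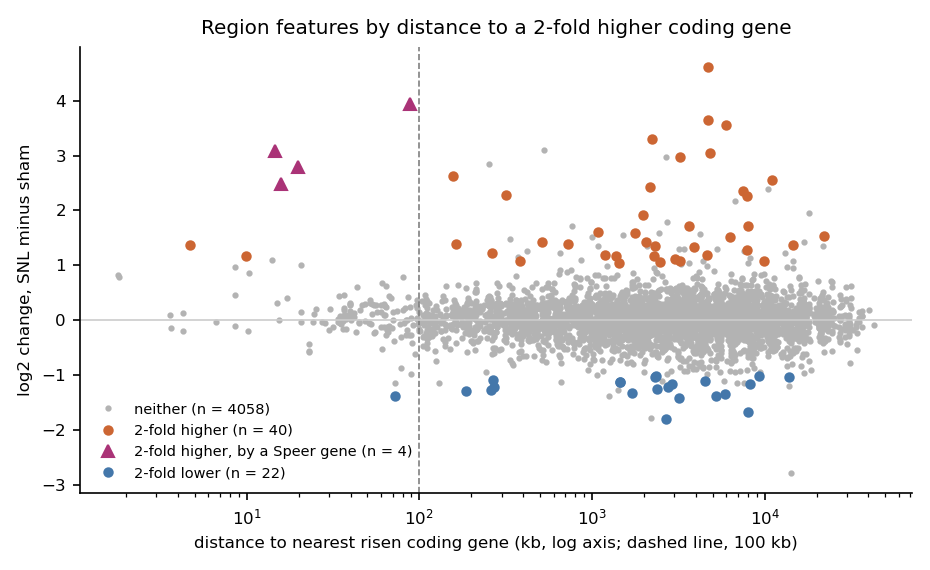
Each point is 1 of 4124 region features, with the distance to the nearest 2-fold higher coding gene in kb on a log axis and the log2 change (SNL minus sham) upwards; coloured points are at least 2-fold changed at unadjusted p under 0.05. Left of the dashed line at 100 kb are 6 higher features, 4 of them (triangles) by Speer genes, and 38 of the 44 higher features lie to its right.

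The 4 features by Speer genes were all read on the forward strand, and none passed the adjusted threshold with the probe used in the fit. The feature chr5:15176325-15223375 had levels of -3.95 and -3.98 in sham and of 0.32 and -0.37 in SNL, a difference of 3.94 ± 0.27 (adjusted p = 0.0721), with its 3 probes from 2.84 to 4.73. Its neighbour Speer4d, 88.6 kb away, was at 5.69 ± 0.26 (adjusted p = 0.0473), and Speer4cos, within the interval, at 0.16 ± 0.22. An unnamed probe of the opposite strand within the interval was at 3.59 ± 0.30 (adjusted p = 0.0887). The feature chr5:14923900-15062725 stood at -7.14 and -7.38 in sham, and at -4.01 and -4.34 in SNL, a difference of 3.08 ± 0.17 (adjusted p = 0.0522). Its interval also holds probes of Speer4e (2.91 ± 0.39) and Gm17019 (3.78 ± 0.30), both on the opposite strand, and of Speer8-ps1 (-0.16 ± 0.30) on its own strand. Its probe has 34 bases that are complementary to a reverse probe of chr5:15176325-15223375, which was itself at 4.51. The reverse feature of chr5:15176325-15223375, represented by another probe, was at 0.32 ± 0.22, so reverse probes of that interval differed. The pair printed above stood at 2.49 ± 0.21 and 2.79 ± 0.19 (adjusted p = 0.0908 and 0.0721), and Speer4a, 15.7 and 19.8 kb from them, at 1.40 ± 0.20 (adjusted p = 0.164). Within their intervals Gm5067, on the same strand, was at -0.10 ± 0.10, and 3 unnamed probes of the opposite strand were between -0.75 and -0.09. Speer genes are close copies, so which copy or strand each of these probes reads is uncertain.

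The remaining features named as nearest to a risen coding gene changed less, and some were lower. For the forward strand of chr15:66684765-66685491, 72.2 kb from Sla (1.49 ± 0.25), the fit gave -1.37 ± 0.32 (adjusted p = 0.281). It was above background in neither SNL mouse. The forward strand of chr5:124489025-124506750, 188 kb from Hcar2 (2.25 ± 0.44), was at -1.29 ± 0.38 (adjusted p = 0.359). The forward strand of chr3:145313275-145315057 lies 4.69 kb from Ccn1, a secreted matrix protein gene on the other strand. Its levels were -7.14 and -7.67 in sham, where 1 of 2 mice was above background, and -5.91 and -6.15 in SNL. The difference was 1.38 ± 0.23 (adjusted p = 0.199), beside 1.01 ± 0.26 for Ccn1. The forward strand of chr1:175654606-175672031 overlaps Ifi207, an interferon-inducible gene of the opposite strand, and was at 1.17 ± 0.32 (adjusted p = 0.33), beside 1.48 ± 0.28 for Ifi207. All 5 of its tested probes were above 0, and 3 of the others share runs of 21 to 31 bases with the probe used. The reverse strand of chr1:195332659-195335997, within which Mir205hg, the host gene of a microRNA, is read on the same strand, was at 1.38 ± 0.15 (adjusted p = 0.115), 163 kb from the laminin gene Lamb3 at 1.47.

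No region feature passed the adjusted threshold downwards, and the 221 lower at unadjusted p under 0.05 in limma (5.33%) are near the 5.48% of all features. Of the 22 that were at least 2-fold lower, 12 were above background in neither SNL mouse and 8 on all 4 arrays. Their intervals were shorter, with a median of 1660 bases, beside 16394 for the 44 higher and 11228 for all tested features. One with 3 tested probes, named as the second largest decrease, was the forward strand of chr8:83210957-83219451, with levels of -2.26 and -2.75 in sham and of -4.47 and -3.88 in SNL, a difference of -1.67 ± 0.30 (adjusted p = 0.209). All 3 of its probes lay between -1.67 and -1.49. Frem3, a gene for an extracellular matrix protein, has its probe 0.166 kb away within the same interval and on the same strand, and was at -2.04 ± 0.33 (adjusted p = 0.186), so this feature is not apart from a coding gene. The forward strand of chr5:124489025-124506750, 9.77 kb from the transporter gene Abcb9, was at -1.29 ± 0.38 and above background on all 4 arrays.

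The other 6 named decreases, on chromosomes 1, 3, 12, 13, 15 and X, were above background in both sham mice and neither SNL mouse, so their SNL level is uncertain. The forward strand of chr3:52002170-52004411 had levels of -6.79 and -7.30 in sham and measured -8.93 and -8.73 in SNL, where the fit gave -1.78 ± 0.22 (adjusted p = 0.141). The dimmest detected probe lay at -6.89 and -7.01 on the SNL arrays, and at -7.86 and -8.01 on the sham arrays. Against the SNL limits, the sham level was 1.80-fold higher for chr13:28898970-28901714 on the reverse strand, by the neural factor gene Sox4. It was 1.75-fold higher for chr1:71730139-71730720 on the forward strand, by the fibronectin gene Fn1, and 1.08-fold for chrX:18734106-18744367 on the reverse strand. These folds are not strict bounds, because another probe at -6.62 and -6.75 in SNL was above background in only 1 SNL mouse. For the other 3 no fold could be given. Adjusted p for the 6 ran from 0.0908 to 0.286.

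Long noncoding RNAs that carry a gene name were set beside the regions. Of 24 in the list, 19 were tested, and limma called 0 at adjusted p under 0.05, with 1 of them past unadjusted p under 0.05 and 0 changed 2-fold. The median log2 change was -0.02, and 8 of 19 lay above 0. The smallest p belonged to Snhg1, a host gene of small nucleolar RNAs, with levels of -1.60 and -1.68 in sham and of -0.78 and -0.93 in SNL (0.78 ± 0.11, adjusted p = 0.161). Snhg14 was at -0.50 ± 0.19, Snhg11 at 0.28 ± 0.12 and Pvt1 at -0.25 ± 0.14. The nuclear RNAs Malat1 and Neat1 were at 0.31 ± 0.40 and 0.25 ± 0.18.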

How the data were processed

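Per the labels' protocols, RNA of 4 mice was amplified and dyed with Cy3 for Agilent arrays read in 1 colour. Linear spot intensity is what the deposited files hold, as processed signals from Agilent Feature Extraction (version 10.7.3.1 per the file headers, 10.7.1.1 per the submitters' processing notes). The authors' deposited log2 table (column medians -3.46, -3.53, -3.49 and -3.34) matched these up to a shift of 0.122 to 0.132 and served as an alternative; over which spots its percentile was taken is unknown. Here each log2 signal had the 75th percentile of its array subtracted (59305 spots, controls left out), outlier spots left out and spots of a probe averaged. A probe was tested if well above background on at least 2 arrays, and a name was represented by its probe of highest mean. The groups were compared with limma 3.58.1 (R 4.3.3, lmFit and eBayes, 2 residual and 1.66 prior degrees of freedom), adjusted by Benjamini-Hochberg over all 29114 features. With 2 mice per group an exact permutation test cannot go below 0.333, so none is given. The number of arrays limits the precision. Gene names came from a RefSeq table (26762 probes by accession, 3819 by symbol, 639 by synonym). Every feature called, the 12 largest increases and 8 largest decreases of at least 2-fold, strand pairs 2-fold changed on both strands and the 10 changed features nearest to a risen coding gene were named; 1 of these features is not reported here. Members, lists and rules were chosen with earlier results of these data known. Scripts were tested on simulated data. No genome sequence was used here.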

Additional observations from a re-analysis of the deposited data

How the results depend on the processing

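Of the counts of calls, 6 higher became 11 with normexp correction, 64 with no filter on dim probes, 16 with each probe its own feature (of 11574 tested), 32 with a variance trend and robust estimation, and 0 with the replicate number as a block, a fit with 1 residual degree of freedom that called 0 of all features. The replicate numbers share only a number, since deviations of same-numbered mice correlated at -0.03. Calls lower became 7 with no filter, 1 with each probe its own feature and 10 with the variance trend. Over all features the calls also grew, from 47 higher and 3 lower in the main fit. They became 118 and 14 with normexp correction, and 1143 and 88 of 34496 with no filter. With each probe its own feature they were 63 and 5 of 44313, and with the variance trend 436 and 123. The 16 region calls by probe came from 12 features. Features 2-fold higher numbered 85 with no filter and 147 with each probe its own feature. Features 2-fold lower numbered 8 with normexp correction, 8 where all 4 arrays had to be above background and 92 with each probe its own feature. Near a risen coding gene the count of 6 became 29 with each probe its own feature, 11 within 500 kb, 1 with genes taken at adjusted p under 0.05 and 2 without the Speer block. Leaving out each array gave 0 to 0 calls higher, 43 to 109 features 2-fold higher, 17 to 122 lower and 6 to 11 near a risen gene; with 1 residual degree of freedom these fits called 0 of all features, which says nothing about stability. The authors' deposited table and the percentile over detected spots gave the same 6 calls, and quantile normalization 4 of them. With the tested probes of a name averaged 4 were called, 1 of them among the 6. A slide or scan block, though planned, was not run because all arrays lie on 1 slide of 1 scan. Position on that slide goes with group, so no fit here could separate them. With 2 mice per group no result here rests on more than 4 arrays, and 12 of the 22 decreases were above background in neither SNL mouse.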
